A study of Mus musculus with 12 samples.

Results

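The transcripts described here are those that stood lower in the input RNA of both Miwi mutants than in the input RNA of Miwi +/- late spermatocytes. A gene was counted as a member where its log2(RPKM + 1) was at least 1 below the Miwi +/- input in both the Miwi ADH/- and the Miwi -/- input. RPKM scales the reads of each gene to its length in kilobases and to 1000000 reads of its library. Of 20345 listed genes, 12246 reached 1 RPKM in 2 or more of the 6 columns (kept genes), and 155 of these were members.

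MIWI is a germ-line Argonaute protein of the PIWI clade, and mouse spermatocytes at the pachytene stage and round spermatids make it. It is loaded with pachytene piRNAs, small RNAs that guide it to complementary RNAs, and its catalytic site can cut a well-paired target. Males without MIWI are known to be sterile, with germ cells that stop at the round spermatid stage. Late spermatocytes, as the labels name the cells, precede that stop, but whether the inputs held later cells could not be checked.

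The study sequenced RNA recovered with a MIWI immunoprecipitation (IP) and, as input, RNA from before the IP, both depleted of ribosomal RNA. The labels give 12 samples of mouse late spermatocytes, 2 for each pairing of IP or input with the genotypes Miwi +/-, Miwi ADH/- and Miwi -/-. Miwi +/- keeps an intact allele, Miwi ADH/- keeps only an allele known as a mutant of the catalytic site, and Miwi -/- has none, so that every group carries a null allele and the Miwi -/- IP is the background of the antibody. The table holds 1 column per group, no replicate values were at hand, and strain, age and animal numbers are unstated in the labels. The labels name both testes and sorted cells as sources of RNA, without saying which was used for a sample.

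Each difference below therefore compares 1 column with another, without a replicate check or a p-value. The 2 samples of a group may stand behind 1 column, but no spread between them could be measured. Genes appear by their Ensembl IDs: the table pairs these with no names, and the reference gene table matched 0 of them. For that reason the level of the targeted gene, the markers of late spermatocytes and of other testis cells, and gene groups by function could not be read, and at most 2 lower and 2 higher IDs are given per comparison. In bulk RNA, fewer cells of a type and less RNA per cell cannot be told apart.

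RPKM values of a gene step in units of 1 read, so read numbers and gene lengths could be worked out from the table. Listed genes held between 714508 reads (Miwi -/- IP) and 3831911 reads (Miwi +/- input), and for a gene 1000 bases long 3 reads equalled 0.284 RPKM in the deepest column (Miwi ADH/- IP) and 0.719 RPKM in the shallowest (Miwi -/- IP). The members together took 8532 of these reads in the Miwi +/- input, against 1998 in the Miwi ADH/- and 2283 in the Miwi -/- input. They took 2784, 3761 and 1172 reads in the Miwi +/-, ADH/- and -/- IPs. The members are thus 0.223% of the listed reads of the column that chose them as high. Listed reads were 28.2%, 33.8% and 17.1% of the worked-out totals of the Miwi +/-, ADH/- and -/- IPs. For the inputs the shares were 51.1%, 47.0% and 52.3%. RPKM is scaled to the totals. Equal column sums moved the kept genes' median difference from the Miwi +/- IP from 0.21 to -0.04 (Miwi ADH/- IP) and from -0.77 to -0.41 (Miwi -/- IP).

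The input values chose the members and are given as a description. The 155 members were 1.27% of the kept genes. For comparison, 7.42% of the kept genes stood at least 2-fold lower in the Miwi ADH/- input and 10.6% in the Miwi -/- input. Both counts are taken against the same Miwi +/- column, and nothing is read from their overlap. Another 754 genes were lower in the Miwi ADH/- input only and 1140 in the Miwi -/- input only.

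On the scale of RPKM + 1, most members lay close to the bound. In the less lowered of the mutant inputs, 94 of the 155 were between 2-fold and 2.5-fold below Miwi +/-. There 128 were under 3-fold, and 9 were at least 4-fold below in both. Throughout, counts at a fold size use RPKM + 1, while ratios of single IDs use RPKM. Adding 1 shrinks the folds of low values. A member at 1.73 RPKM in Miwi +/-, against 0.308 in Miwi ADH/- and 0.159 in Miwi -/-, counts as under 2.5-fold. The median difference was -1.34 for Miwi ADH/- and -1.42 for Miwi -/- on the log2(RPKM + 1) scale, against -0.16 and -0.02 over all kept genes. Just inside the bound were members at 2.55 RPKM in Miwi +/- against 0.773 in Miwi ADH/- and 0.747 in Miwi -/-, at 9.10 against 4.04 and 2.68, and at 13.9 against 6.42 and 5.74. Just outside stood genes at 5.56 RPKM against 0 and 2.28, at 11.02 against 5.01 and 2.58, and at 6.43 against 2.72 and 1.87. The genes on either side of the bound thus had similar levels.

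**Figure D1:**
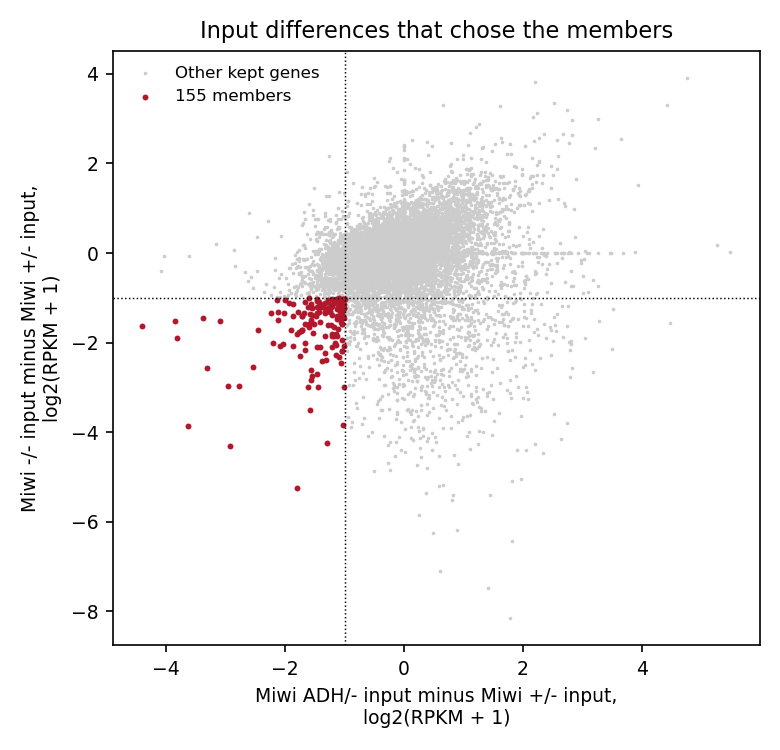
Difference in log2(RPKM + 1) of the Miwi ADH/- input (horizontal axis) and of the Miwi -/- input (vertical axis) from the Miwi +/- input, for each of the 12246 kept genes (grey) and the 155 members (red). Dotted lines mark a difference of -1. The members fill the lower left corner by construction, and most sit near the lines.

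Members were of modest level where they were highest. Their median was 5.06 RPKM in the Miwi +/- input (quartiles 3.07 and 13.2), against 7.37 RPKM for all kept genes. In that column 110 members were under 10 RPKM, 45 were at 10 RPKM or more and 15 at 30 RPKM or more. In the mutant inputs the medians were 1.21 RPKM (Miwi ADH/-) and 1.05 RPKM (Miwi -/-), against 6.90 and 6.58 RPKM for all kept genes. Among the members, 24 were listed at 0 in the Miwi ADH/- input, 35 in the Miwi -/- input and 17 in both. Those 17 had a median of 5 reads in the Miwi +/- input. A few members carried much of the signal: the 4 highest held 34.7% of the summed 2125 RPKM of the Miwi +/- input.

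The mutant inputs had similar medians for these transcripts (1.21 and 1.05 RPKM), which the rule favours by asking for a low value in both. At such levels adding 1 to RPKM also shrinks differences. The Miwi ADH/- input was the lower of the mutant inputs for 58 members, the Miwi -/- input for 80, and 17 were equal. Between them, 20 members were at least 2-fold higher in Miwi ADH/- and 6 at least 2-fold lower, which is 12.9% and 3.87%, against 12.6% and 6.54% of all kept genes.

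The member with the highest level in the Miwi +/- input was ENSMUSG00000065304, of 135 bases. It had 412 RPKM in the Miwi +/- input (417 reads), 199.7 in the Miwi ADH/- input (148 reads) and 167 in the Miwi -/- input (160 reads). Its input ratios of Miwi +/- over the mutants were 2.06 (95% counting interval 1.71 to 2.51) and 2.47 (2.05 to 2.98), so it entered the set close to the bound. Its IP levels were 216 RPKM in Miwi +/- and 214 in Miwi ADH/-, which overlap within counting error (ratio 1.01, interval 0.833 to 1.22). The Miwi -/- IP stood apart, at 14.2 RPKM, 15.2-fold below the Miwi +/- IP (7.56 to 35.9, from 8 reads). Such intervals are exact for the summed reads of both columns, cover counting error only and compare these libraries, not the genotypes.

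The member furthest below the bound in both inputs, among those at or above the median level of kept genes, was ENSMUSG00000087544, of 288 bases. It had 34.8 RPKM in the Miwi +/- input (75 reads), 1.90 in Miwi ADH/- (3 reads) and 1.47 in Miwi -/- (3 reads). Its ratios were 18.3 (6.03 to 90.8) and 23.7 (7.81 to 117). Hardly any of this RNA was recovered in the IPs: the Miwi +/- and Miwi -/- IPs had 1 read each and the Miwi ADH/- IP 0. Its level was thus high in the Miwi +/- input alone of all 6 columns.

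**Figure D2:**
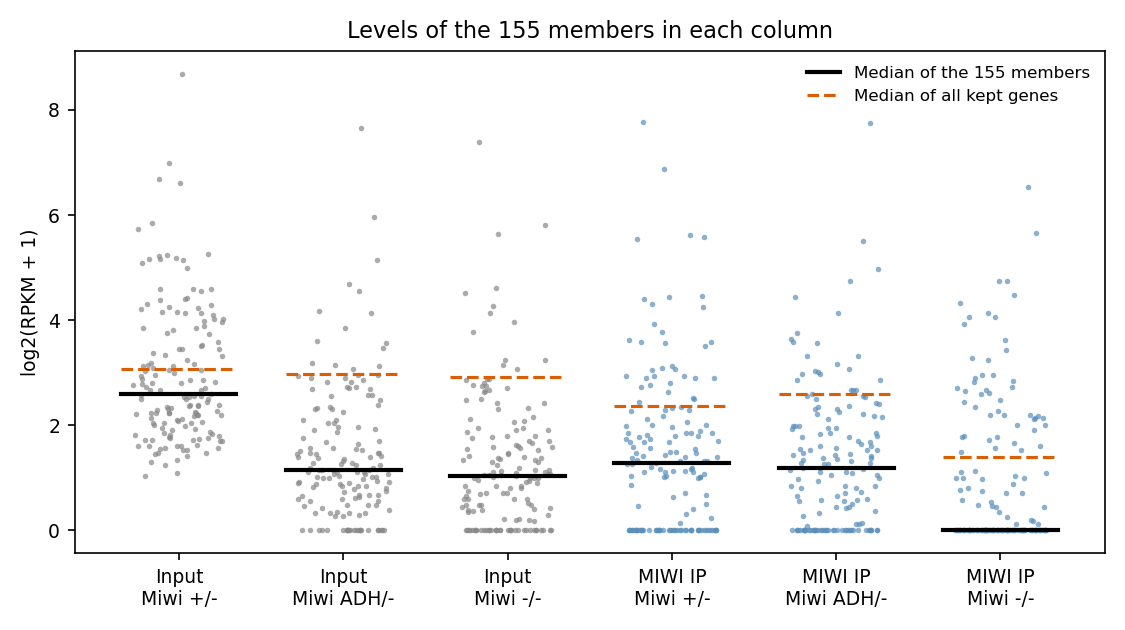
Level of each of the 155 members, as log2(RPKM + 1), in the 3 input columns (grey points) and the 3 IP columns (blue points), with the median of the members (black line) and of all 12246 kept genes (dashed orange line). Member medians were 5.06, 1.21 and 1.05 RPKM in the inputs and 1.42, 1.28 and 0 RPKM in the IPs of Miwi +/-, ADH/- and -/-, each below the median of all kept genes.

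Short genes were frequent among the members. Their median length was 801 bases, against 1617 bases for all kept genes. Of the 155, 41 were under 300 bases long, 55 were of 300 to under 1000 bases, 45 of 1000 to under 2000 bases and 14 of 2000 bases or more. Members made up 11.9% of the 345 kept genes under 300 bases, 2.01% of the next class, 0.989% of the third and 0.303% of the longest. Read numbers fell with length too: the members under 300 bases had a median of 12 reads in the Miwi +/- input, against 22, 50 and 75.5 reads in the longer classes. The part of read number in the class shares was not tested. Where all reads of a gene share a factor, its worked-out length is too short. How many members this concerns was not tested.

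The shortest members were also the ones with the highest level per length. Those under 300 bases had a median of 15.3 RPKM in the Miwi +/- input, against 4.68, 4.65 and 3.74 RPKM in the longer classes. In the mutant inputs their medians were 1.90 RPKM (Miwi ADH/-) and 1.98 RPKM (Miwi -/-), and 14 and 15 of the 41 were listed at 0. Of the 41, 20 were at 0 in the Miwi +/- IP, 19 in the Miwi ADH/- IP and 27 in the Miwi -/- IP, which is 48.8%, 46.3% and 65.9%, against 45.2%, 31.9% and 62.0% of kept genes of that length. Of the 15 members at 0 in all IPs, 10 were among these 41. Of the 345 kept genes of that length, 64 (18.6%) were at 0 in all IPs. The lengths are those worked out for the gene models behind the table, with the limit given above. Genes of this size hold the classes of small nuclear and nucleolar RNA as well as short gene fragments, which could not be told apart without names.

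**Figure D3:**
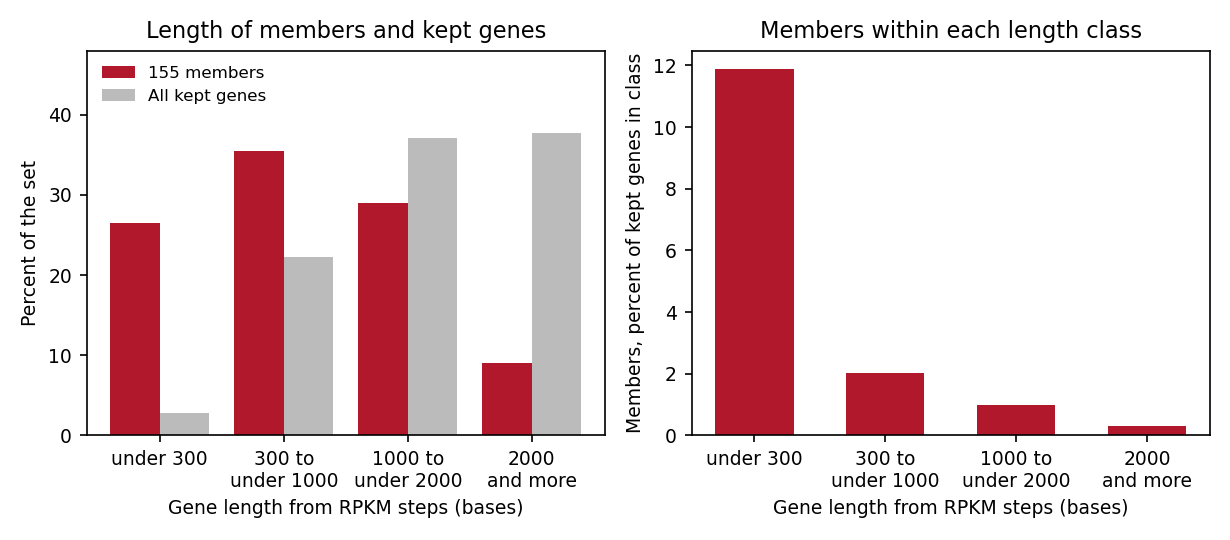
Left, percent of the 155 members (red) and of the 12246 kept genes (grey) in 4 classes of gene length in bases; right, members as percent of the kept genes of each class. Members were 11.9% of the shortest class and 0.303% of the longest.

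The IP columns come from other libraries than the inputs that chose the members, but the filter on low values used them too. The 51 members that passed only with an IP column could not be at 0 in all IPs. A larger share of members than of all kept genes was listed at 0 there. In the Miwi +/- IP 49 members (31.6%) were listed at 0, in the Miwi ADH/- IP 42 (27.1%) and in the Miwi -/- IP 81 (52.3%), against 9.67%, 5.14% and 23.7% of all kept genes. These shares move with length: at 300 to under 1000 bases 36.4%, 32.7% and 65.5% of members were at 0, against 19.4%, 9.48% and 38.1% of kept genes of that length, while under 300 bases members and kept genes in the Miwi +/- IP lay close, as given above. Median IP levels were 1.42, 1.28 and 0 RPKM, against 4.14, 5.06 and 1.62 RPKM for all kept genes. All IPs were at 0 for 15 members (9.68%), against 1.76% of kept genes, and 56 members had reads in all of them. This share moves with length too: 10 of the 15 were under 300 bases, where 18.6% of kept genes were at 0 in all IPs. The other 104 members reached 1 RPKM in 2 or more input columns. Of these, 32.7%, 18.3% and 49.0% were at 0 in the Miwi +/-, ADH/- and -/- IPs. The 11280 genes kept that way gave 8.05%, 4.34% and 21.2%.

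The filter on low values ties some members to the IP columns. A gene low in both mutant inputs needs a second column at 1 RPKM or more, and for 51 of the 155 members that column was an IP. The other 104 passed through input columns alone, and an IP difference among them was not favoured by the filter. Comparisons between IPs are given for all 155 and for these 104. This split was made after the values were seen.

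Between the IPs of Miwi +/- and Miwi ADH/- the members moved in both directions. Of all 155, 38 (24.5%) were at least 2-fold lower in the Miwi ADH/- IP and 31 (20%) at least 2-fold higher, against 7.48% and 18.0% of kept genes. Of the 51 members that an IP column had kept, 25 (49.0%) lay lower and 11 (21.6%) higher, where the 966 genes kept that way gave 18.2% and 32.4%. These shares depend on the filter. The 51 had both mutant inputs under 1 RPKM and needed 1 IP column at that level, while a gene without such an input needed 2. Nothing is read from the shares of the 51, which also enter those of all 155. Among the 104, 13 (12.5%) lay lower and 20 (19.2%) higher, where the 11280 genes kept by input columns gave 6.56% and 16.7%. By the rule, every input difference of the 104 was -1 or below (median -1.41), and the IP difference is not compared with it. Their median IP difference was 0.00 (quartiles -0.55 and 0.65), against 0.20 over those 11280 genes. The median rests in part on members without reads: 34 of the 104 were listed at 0 in the Miwi +/- IP and could not be lower, and 15 were equal. Of the 53 with at least 20 reads over this pair of IPs, 34 were lower and 19 higher in Miwi ADH/-, with a median of -0.27 against 0.24 over the 9913 genes kept in that way. At least 2-fold lower were 10 of the 53 (18.9%) and at least 2-fold higher 6 (11.3%), against 5.73% and 16.9%.

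Members with many reads showed a lower median. Of the 22 members with at least 100 reads in the Miwi +/- input that passed through inputs alone, 16 were lower in the Miwi ADH/- IP than in the Miwi +/- IP and 6 higher. Their median difference was -0.41 (quartiles -0.78 and 0.09), against 0.22 over the 6056 kept genes of that depth, and 4 of the 22 (18.2%) were at least 2-fold lower and 1 (4.55%) at least 2-fold higher, against 2.77% and 11.9%. Their median levels were 16.3, 5.88 and 5.62 RPKM in the Miwi +/-, ADH/- and -/- inputs and 6.56, 5.85 and 3.36 RPKM in the IPs. Their median input difference between Miwi ADH/- and Miwi +/- was -1.26. The rule held each input difference at -1 or below, so its size is not compared with that of the IP difference. Split by length, the 104 held 6 at least 2-fold lower and 9 higher of 32 under 300 bases (18.5% and 26.3% of kept genes of that class), 3 and 9 of 35 at 300 to under 1000 bases (8.47% and 29.6%), 3 and 1 of 27 at 1000 to under 2000 bases (7.15% and 16.6%), and 1 and 1 of the 10 longest (4.02% and 8.70%).

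Among the 104 members, those furthest apart between these IPs with at least 20 reads over the pair were chosen for naming after the values were seen. ENSMUSG00000059430, of 982 bases, had 7.26 RPKM in the Miwi +/- IP (42 reads) and was listed at 0 in the Miwi ADH/- and Miwi -/- IPs. With 3 reads in place of each 0, it was 25.2-fold higher in Miwi +/- than in Miwi ADH/- and 9.92-fold higher than in Miwi -/-. Its counting intervals had lower ends of 19.6 and 7.72. Its inputs had 10.3 RPKM in Miwi +/- (76 reads), 2.78 in Miwi ADH/- (15 reads) and 0 in Miwi -/-, so both kinds of library were highest in Miwi +/-.

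ENSMUSG00000077704, of 110 bases, had 47.9 RPKM in the Miwi +/- IP (31 reads), 1.72 in Miwi ADH/- (2 reads) and 2.18 in Miwi -/- (1 read). The ratio of Miwi +/- over Miwi ADH/- was 27.9, with a counting interval of 7.09 to 240. Its inputs were 8.49, 3.31 and 1.28 RPKM in the same order, from 7, 2 and 1 reads, so that the input difference rested on far fewer reads than the IP difference.

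Other members went the opposite way. ENSMUSG00000065196, of 73 bases, had 2.33 RPKM in the Miwi +/- IP (1 read), 25.9 in Miwi ADH/- (20 reads) and 49.2 in Miwi -/- (15 reads). Its ratio of Miwi ADH/- over Miwi +/- was 11.1 (1.78 to 461). ENSMUSG00000085456, of 692 bases, had 0.245 RPKM in the Miwi +/- IP (1 read), 4.92 in Miwi ADH/- (36 reads) and 0 in Miwi -/-, a ratio of 20.03 (3.37 to 813). In the inputs both were lowest in the mutants, so their order between Miwi +/- and Miwi ADH/- in the IPs ran against that in the inputs.

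**Figure D4:**
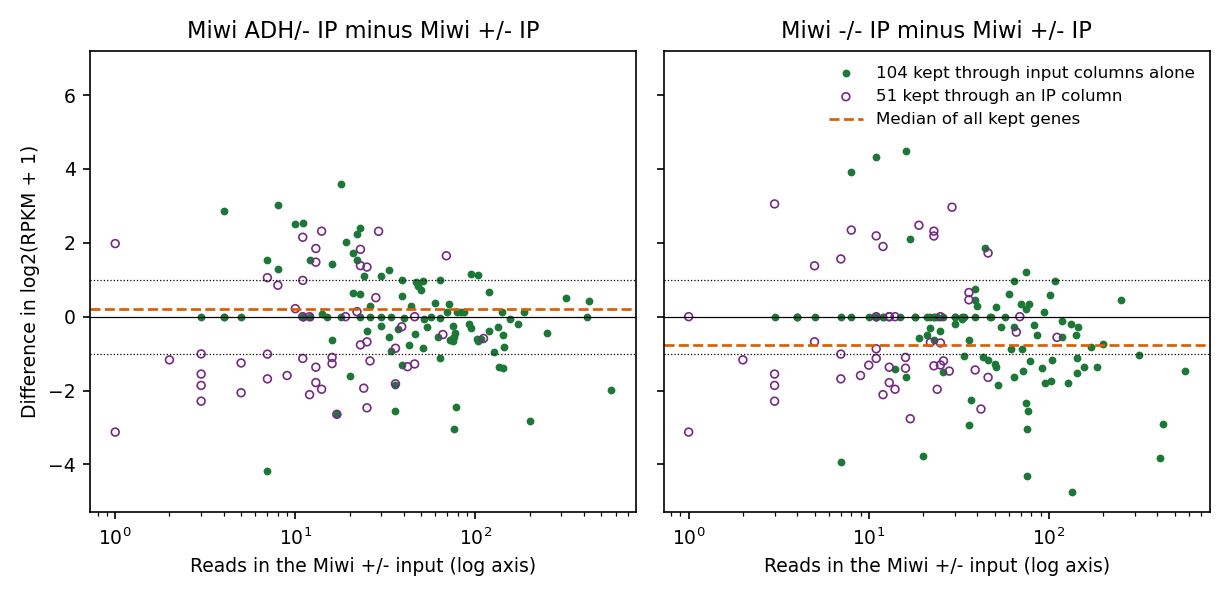
Difference in log2(RPKM + 1) of the Miwi ADH/- IP (left) and the Miwi -/- IP (right) from the Miwi +/- IP for each member, against its reads in the Miwi +/- input (log axis). Filled green points are the 104 members kept through input columns alone, open purple points the 51 kept through an IP column, the dashed line the median of all kept genes (0.21 left, -0.77 right), and dotted lines mark 2-fold. Members with few reads scatter to both sides, and of those with at least 100 reads most lie below 0 in both panels.

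The Miwi -/- IP, the background of the antibody, was compared with the Miwi +/- IP in the same way, and shares that column with the comparison above. Of all 155 members 59 (38.1%) were at least 2-fold lower in it and 17 (11.0%) at least 2-fold higher, against 42.1% and 5.37% of kept genes. Among the 104, 34 (32.7%) lay lower and 6 (5.77%) higher, where the genes kept by input columns gave 43.1% and 4.49%. Their median was -0.20 against -0.80, with 30 of the 104 equal because both IPs were listed at 0. Of the 22 members with at least 100 input reads, 12 (54.5%) lay at least 2-fold lower and 0 higher, where kept genes of that depth gave 47.8% and 1.62%, with a median of -1.08 against -0.94. Among these 22 the share of lower values was thus near that of other genes of that depth. For the 51 members kept through an IP column it was 49.0%, with 21.6% higher, against 30.8% and 15.6% of genes kept that way. The filter shapes these shares as described above, and nothing is read from them. Measured from the kept genes' median, as an alternative that chooses 103 members, the members' median difference turned to 0.64.

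Between the mutant IPs, 53 members (34.2%) were at least 2-fold higher in Miwi ADH/- than in Miwi -/- and 22 (14.2%) at least 2-fold lower, against 51.8% and 4.93% of kept genes. Among the 104, 41 (39.4%) were higher and 12 (11.5%) lower, where the genes kept by input columns gave 52.3% and 4.01%.

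The members furthest below Miwi +/- in the background IP were ENSMUSG00000080365, of 143 bases, and ENSMUSG00000087968, of 272 bases. ENSMUSG00000080365 had 116 RPKM in the Miwi +/- IP (98 reads), 44.3 in Miwi ADH/- (67 reads) and 3.35 in Miwi -/- (2 reads), which is 34.7-fold below Miwi +/- (9.36 to 291). In the inputs it had 126 RPKM in Miwi +/-, 61.2 RPKM in Miwi ADH/- and 55.1 RPKM in Miwi -/-, so its Miwi ADH/- IP and input were lower by similar factors, 2.63 (1.91 to 3.64) in the IP and 2.06 (1.47 to 2.93) in the input. ENSMUSG00000087968 had 18.7 RPKM in the Miwi +/- IP (30 reads), 12.5 in Miwi ADH/- (36 reads) and 0 in Miwi -/-. With 3 reads in place of that 0, Miwi +/- was 7.09-fold higher than Miwi -/-, and the counting interval had a lower end of 5.42. In its inputs ENSMUSG00000087968 had 37.3 RPKM in Miwi +/-, 10.05 in Miwi ADH/- and again 0 in Miwi -/-.

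For the opposite direction, 41 members were ranked: those kept through input columns alone with at least 20 reads over the Miwi +/- and Miwi -/- IPs. Furthest above Miwi +/- among these was ENSMUSG00000069196, of 314 bases, followed by ENSMUSG00000028455. Members with fewer reads, or kept through an IP column, also lay far above. ENSMUSG00000069196 was listed at 0 in the Miwi +/- IP, at 4.82 RPKM in Miwi ADH/- (16 reads) and at 19.1 in Miwi -/- (25 reads). With 3 reads in place of that 0, its Miwi -/- IP was 11.8-fold above Miwi +/-, and the counting interval had a lower end of 8.875. ENSMUSG00000028455, of 820 bases, had 1.04 RPKM in the Miwi +/- IP (5 reads), 1.5 in Miwi ADH/- (13 reads) and 6.43 in Miwi -/- (22 reads), a ratio of Miwi -/- over Miwi +/- of 6.21 (2.29 to 21.0). Both were recovered best where MIWI is absent, although their Miwi -/- inputs, at 0.897 and 1.03 RPKM, were the lowest of the 3.

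Taking the IPs by rank, 63 members (40.6%) were highest in the Miwi +/- IP, 46 (29.7%) in Miwi ADH/- and 31 (20%) in Miwi -/-, against 31.9%, 54.9% and 11.4% of all kept genes. Among the 104 the counts were 36 (34.6%), 35 (33.7%) and 18 (17.3%), against 32.1%, 55.7% and 10.2% of genes kept by input columns.

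IP levels relative to the own input are given as values only, because the input columns chose the members: a high Miwi +/- input lowers the first of these differences and low mutant inputs raise the others. The median difference of IP minus input was -1.33 for Miwi +/-, 0.00 for Miwi ADH/- and -0.30 for Miwi -/-, against -0.77, -0.41 and -1.37 over all kept genes. In Miwi +/-, 92 members (59.4%) were at least 2-fold lower in the IP than in the input and 3 (1.94%) at least 2-fold higher, against 40.6% and 4.24% of kept genes. In Miwi ADH/- 25 (16.1%) were lower and 26 (16.8%) higher, against 25% and 4.83% of kept genes. In Miwi -/- 49 (31.6%) were lower and 25 (16.1%) higher, against 60.9% and 3.67%. The 3 that stood higher in the Miwi +/- IP include ENSMUSG00000077704, described above, and, singled out after its values were seen, ENSMUSG00000036459, of 1086 bases. The latter had 5.79 RPKM in the Miwi +/- IP (37 reads), 0.0870 in Miwi ADH/- (1 read) and 0 in Miwi -/-, and 2.09, 0.336 and 0.519 RPKM in the inputs from 17, 2 and 4 reads. It passed the filter through an IP column.

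Read number set how firmly a member was measured. The members had a median of 29 reads in the Miwi +/- input, against 97 for all kept genes, and a median of 5 reads in each mutant input, against 65.5 (Miwi ADH/-) and 83 (Miwi -/-). In the Miwi +/- input 23 members had at least 100 reads and 23 had under 10. For 123 of the 155 the counting intervals of both input ratios excluded equality, which describes the precision of each ratio and is no test of genes chosen by that ratio. For the other 32 the difference in at least 1 mutant input was within counting error.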

How the data were processed

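The deposited table gives RPKM as computed by the authors, in 1 column per group for 12 samples. The headers name that unit for the Miwi +/- columns alone; the other columns, whose values step alike, were taken to share it. The submitters' processing notes list TopHat, Bowtie and mm9 without versions or roles. The counting tool was not given in the sources used here, nor was the annotation.

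The members and the lists were chosen with earlier results of these data known. Lists by gene symbol gave no values, since IDs could not be named. The tests fixed for replicate columns could not be run, so differences of log2(RPKM + 1), with a pseudocount of 1, were counted at 2-fold. The rule for named genes left 2 lower IDs: the member highest in the Miwi +/- input and the member furthest below the bound at or above the median level. IDs named for IP comparisons, and the split by filter and read number, were chosen after seeing values.

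Reads are the smallest whole numbers whose ratios match a gene's values within 0.002 reads, after the columns' relative depth was found from the commonest ratio of low values. Where all reads of a gene share a factor, reads and length are understated. Lengths rest on a total of 7491527 reads for the Miwi +/- input, at which lengths came out whole most often. The step was tested on simulated data. Intervals are Clopper-Pearson at 95%, and the limit for a count of 0 is 3 reads. Python packages were numpy 2.4.6, pandas 2.3.3, scipy 1.17.1 and matplotlib 3.10.9.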

Additional observations from a re-analysis of the deposited data

How the results depend on the processing

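The size of the set follows the choices of the rule. It held 367 genes with a pseudocount of 0.1 (the 155 among them), 26 with a pseudocount of 5, 311 without a filter on low values, 47 with a minimum of 5 RPKM in 2 columns, 103 with differences measured from their medians, 67 with median-of-ratios scaling, 27 at 3-fold, 697 at 1.5-fold, and 23 with at least 100 reads in the Miwi +/- input; with equal column sums it held 137, of which 131 were members. Members at least 2-fold lower in the Miwi ADH/- IP than in the Miwi +/- IP numbered 124, 4 and 11 with the pseudocounts of 0.1 and 5 and the 5 RPKM filter, 20 with median-of-ratios scaling, 13 with a filter on input columns alone and 4 at 100 reads. In that order they were 33.79%, 15.38%, 23.4%, 29.85%, 12.5% and 17.39% of their set. All genes kept under each setting gave 12.64%, 1.184%, 4.996%, 9.799%, 6.56% and 7.48%. The read minimum was applied to members only, so its share of all genes covers genes of every depth. Kept genes with at least 100 reads in the Miwi +/- input gave 2.77%. For the Miwi -/- IP the counts were 169, 4, 20, 25, 34 and 12, and 15 with differences measured from their medians. Their shares were 46.05%, 15.38%, 42.55%, 37.31%, 32.69%, 52.17% and 14.56%. All genes kept gave 53.09%, 16.38%, 49.33%, 27.7%, 43.1%, 42.14% and 19.41%, where kept genes with at least 100 reads gave 47.8%. For the Miwi +/- IP below its own input the counts were 232, 18 and 28 in the first 3 settings, 237 without a filter, 52 from the medians, 37 with median-of-ratios scaling and 13 at 100 reads. Their shares were 63.22%, 69.23%, 59.57%, 76.21%, 50.49%, 55.22% and 56.52%. All genes kept gave 49.08%, 21.02%, 46.93%, 25.99%, 15.47%, 17.03% and 40.63%, where kept genes with at least 100 reads gave 49.0%. The median Miwi ADH/- IP difference was -0.46 with equal column sums, -0.47 from the medians, -0.49 with median-of-ratios scaling and -0.43 at 100 reads. The median Miwi -/- IP difference was 0.64 from the medians, where its sign turns because the kept genes' own median of -0.77 is taken off, and -1.03 at 100 reads. Of 62 values under alternatives, the other 27 stayed within 1.5 times the count or within the binomial interval of the median. The filter on input columns and the read minimums were added after seeing the data. Fewer genes pass the stricter filters; the cause of the other changes was not tested. No paired analysis was possible because each group has 1 column with no replicate number, and no replicate could be left out. Where both columns of a comparison held under 3 reads, no difference was detectable at this depth.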
